A study of Homo sapiens with 4 samples.

Results

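The WNT ligands, receptors, antagonists and target genes were taken by symbol: every gene annotated as WNT or FZD with a number, and WLS, PORCN, LRP5, LRP6, DKK1, DKK3, DKK4, SFRP1, SFRP2, FRZB, SOST, LEF1, TCF7, TCF7L1, AXIN2, NKD1, SP5, RSPO3, LGR4, LGR5 and CTNNB1. The platform annotation holds probes for 48 of these 50 genes, with 73 probes in all, among 20041 genes with a single symbol on the array, and it names no probe for PORCN or TCF7. The module comprises 19 WNT ligands, 10 Frizzled receptors and the genes around them. Of the 48 genes, 38 were detected on at least 1 of the 4 arrays (detection p at most 0.01) and 10 were not; the 10 are all ligands.

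The samples were human embryonic stem cells in 4 conditions, with 1 Illumina BeadChip array for each. Cells were grown on Matrigel in E8, a defined medium that maintains pluripotency, and the array of cells in plain E8 is labelled 24 h (E8). The treated cells received 10 mM nicotinamide, the amide of vitamin B3, for 24 h (Nam), or 10 µM of Y27632, an inhibitor of the kinase ROCK, for 24 h (Y27632), both in E8. BMP4 was added to E8 for 6 days as the mesoderm differentiation control (Mesoderm), at a dose not given in the sources used here. No array of cells held for 6 days without BMP4 was analysed, so BMP4 and time in culture cannot be told apart, and the labels name the line as H9 in one field and H1 in another. With 1 array per condition there was no replicate check and no test. A gene was called by size, at a difference of at least 2-fold, and all differences below are between single arrays.

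WNT proteins are lipid-modified signals that WLS carries to the cell surface. Bound to a Frizzled receptor with LRP5 or LRP6, they stop the destruction complex from degrading beta-catenin, which then acts with TCF and LEF proteins on target genes; other WNT proteins act without beta-catenin. Secreted antagonists of the DKK and SFRP families limit the signal, R-spondins acting through LGR receptors raise it, and in pluripotent cells the pathway takes part in forming the primitive streak and mesoderm.

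Values are normalized log2 intensities of the probe that represents a gene, and differences are log2 differences of these values. The mean raw signal was between 528.5 and 620.5 on the 4 arrays and 16509 to 18051 probes were detected on each. The lowest value of any detected probe was 5.59 in E8, 5.54 with Nam, 5.82 with Y27632 and 5.63 in Mesoderm. A fold against an array on which a probe was not detected is given as a lower bound, taken from the higher of these limits and the dim value itself. Such a bound holds for the representative probe and the main processing only. Probes of 1 gene differed with a pooled SD of 0.43 when Mesoderm was set against E8, 0.30 for Nam and 0.25 for Y27632 against E8, and 0.30 between Nam and Y27632, over 3182 genes with several detected probes. This spread is between probes on the same arrays and does not cover differences between cultures. The labelled cell type was met on the first 3 arrays, where all 7 pluripotency markers with a probe were detected. On the Mesoderm array 6 of 7 were detected, SOX2 was not, and 10 of 11 mesoderm markers, 4 of 4 endoderm markers and 3 of 6 trophoblast and amnion markers were detected, against 2, 0 and 1 on E8. The summed intensity of the pluripotency markers was 43820 to 45390 on the first 3 arrays and 16240 on Mesoderm, that of the mesoderm markers 342.7 to 370.8 and 23860, that of the endoderm markers 43.6 to 45.71 and 2581, and that of the trophoblast and amnion markers 132.6 to 210.2 and 3870, with CDX2, KRT7 and CGA detected on no array. Of 4 fibroblast markers, 2 were detected on each of the first 3 arrays and 4 on Mesoderm, where ACTA2 was at least 12.5-fold, LUM at least 7.23-fold and COL1A1 3.93-fold above E8 and THY1 7.86-fold below it; their summed intensity was 3172 to 4036 and 1666. These cell type markers move with the Mesoderm differences given below, and their part in the results was not tested. In such bulk RNA, a change in the number of cells of a type and a change of RNA per cell cannot be told apart.

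The module differed most on the Mesoderm array. Of its 35 genes measured there or on E8, 17 were at least 2-fold higher on Mesoderm than on E8, among them WLS, DKK4, SP5, DKK1, LEF1, WNT3A and WNT3, and 5 were at least 2-fold lower: SFRP2, FZD5, TCF7L1, AXIN2 and FZD3. That is 48.6% higher and 14.3% lower, where 10.6% and 11.4% of all 11649 genes compared were higher and lower by that much. The members were chosen with earlier results of these data known, so the shares describe the module and are not a test of it. The median difference was 0.93 over the 35 genes and -0.02 over all genes. Genes detected on Mesoderm alone entered through their high value there, and the median was 0.34 over the 23 genes detected on both arrays, 0.38 over all 48 genes without a detection filter, and 0.43 over the 35 genes without background correction. Of the 17 higher genes, 7 were detected on both arrays, 8 had a bound of at least 2-fold, and the bounds of 2, WNT4 and LGR5, were smaller. With detection required on both arrays, 7 of 23 genes were higher and 5 were lower, and 8.01% and 8.39% of 9889 genes were. The same 17 genes were also at least 2-fold above the highest of the E8, Nam and Y27632 arrays, and the same 5 at least 2-fold below the lowest of them, among 38 genes measured. For all 12083 genes these shares were 7.96% and 7.09%. Without background correction, FRZB, FZD1, FZD8, LGR5, RSPO3, WNT4, WNT5B and WNT6 were no longer 2-fold above E8 or above the 3 other arrays, and FZD3, FZD5 and TCF7L1 were no longer 2-fold below all 3. Part of the module was seen on the Mesoderm array alone: WNT3A, WNT4, WNT6, WLS, LGR5, RSPO3, DKK1, DKK4 and SP5, 9 of 38 genes (23.7%), against 5.02% of all genes measured.

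**Figure D1:**
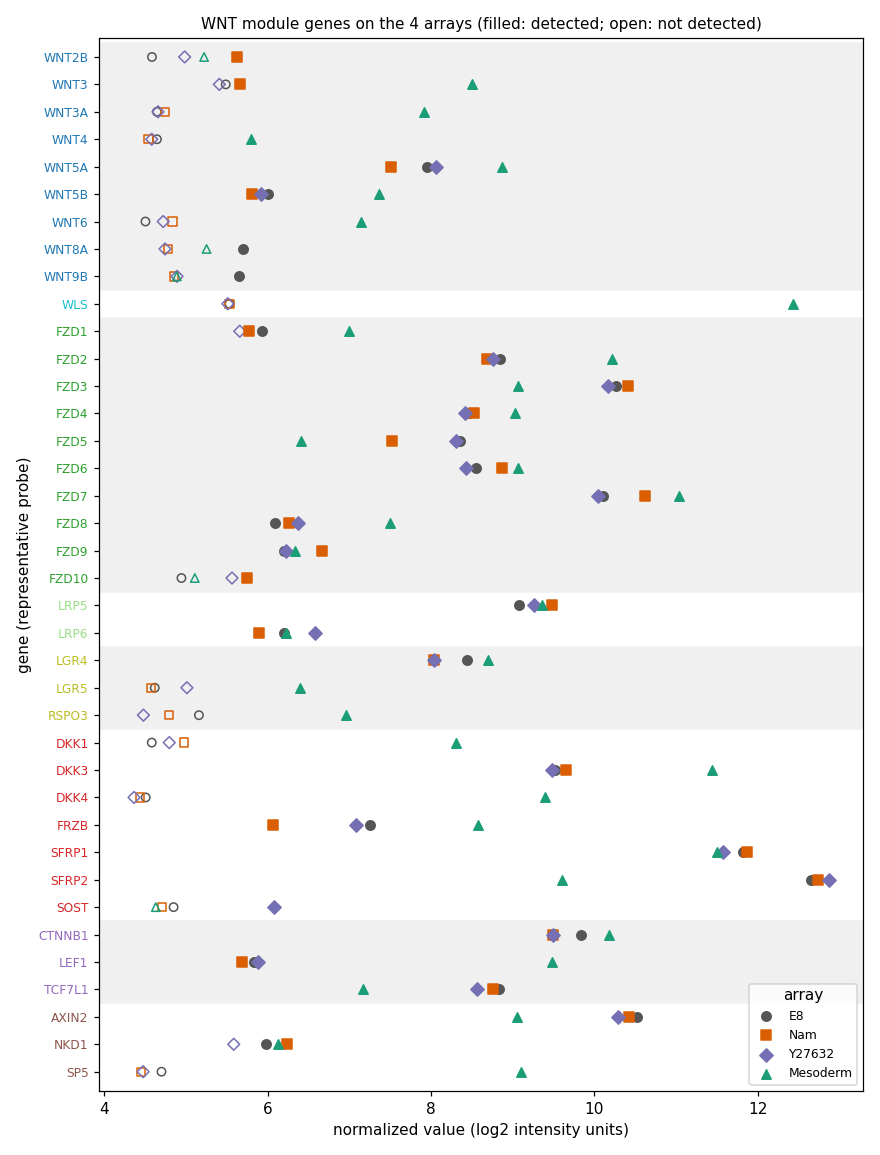
Normalized value (log2 intensity units, x axis) of the representative probe of each of the 38 detected WNT module genes (y axis, label colours and shading separate the roles) on the E8, Nam, Y27632 and Mesoderm arrays; filled symbols were detected and open symbols were not. For most genes the first 3 arrays lie close together, and the Mesoderm symbol stands apart for genes such as WLS (12.43), SP5 (9.10), LEF1 (9.48) and SFRP2 (9.61).

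Among the ligands, WNT3, which is needed to form the primitive streak in the mouse, had values of 5.49 in E8, 5.66 with Nam, 5.41 with Y27632 and 8.50 in Mesoderm. The Mesoderm value was at least 7.52-fold above E8, and the Nam value, although called detected, lay just over that array's limit. WNT3A, a ligand that stabilises beta-catenin, stood at 4.65, 4.75, 4.66 and 7.92 in the same order and was at least 5.04-fold higher on Mesoderm. It was not detected on any of the first 3 arrays. WNT6 had values of 4.51, 4.84, 4.72 and 7.14 (at least 2.95-fold above E8), and WNT4, a ligand of kidney and gonad development, 4.65, 4.54, 4.58 and 5.80 (at least 1.16-fold). The WNT4 value on Mesoderm was close to the limit of detection.

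WNT5A and WNT5B, which act mainly without beta-catenin, were the 2 ligands detected on all 4 arrays. WNT5B had values of 6.01 in E8, 5.81 with Nam, 5.92 with Y27632 and 7.36 in Mesoderm, so the Mesoderm array was 2.56-fold above E8 and the other 3 lay within 0.20 of each other. WNT5A, at 7.95, 7.52, 8.06 and 8.87, was just outside the 2-fold threshold with a difference of 0.92 (1.90-fold). WNT8A (5.70) and WNT9B (5.65) were detected on E8 alone, barely above that array's limit, with differences of -0.44 and -0.76 on Mesoderm. WNT1, WNT2, WNT7A, WNT7B, WNT8B, WNT9A, WNT10A, WNT10B, WNT11 and WNT16 were not detected on any array. The lowest detection p among their probes was 0.031, for WNT7B.

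WLS, the carrier that every lipid-modified WNT protein uses on its way out of the cell, had the largest difference of the module. Its raw signal was 168.6 in E8, 155.9 with Nam, 161.3 with Y27632 and 5696 in Mesoderm, and its normalized value 5.53, 5.54, 5.51 and 12.43. The Mesoderm value was at least 114.7-fold above E8 for this probe, the brightest, and with the main processing. Its difference of 6.89 became 6.11 with an offset of 50 and 4.96 without background correction. All 5 WLS probes were detected on Mesoderm and on no other array, and since E8 gave only background for each of them, their differences of 5.01 to 6.89 are not measured sizes.

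**Figure D2:**
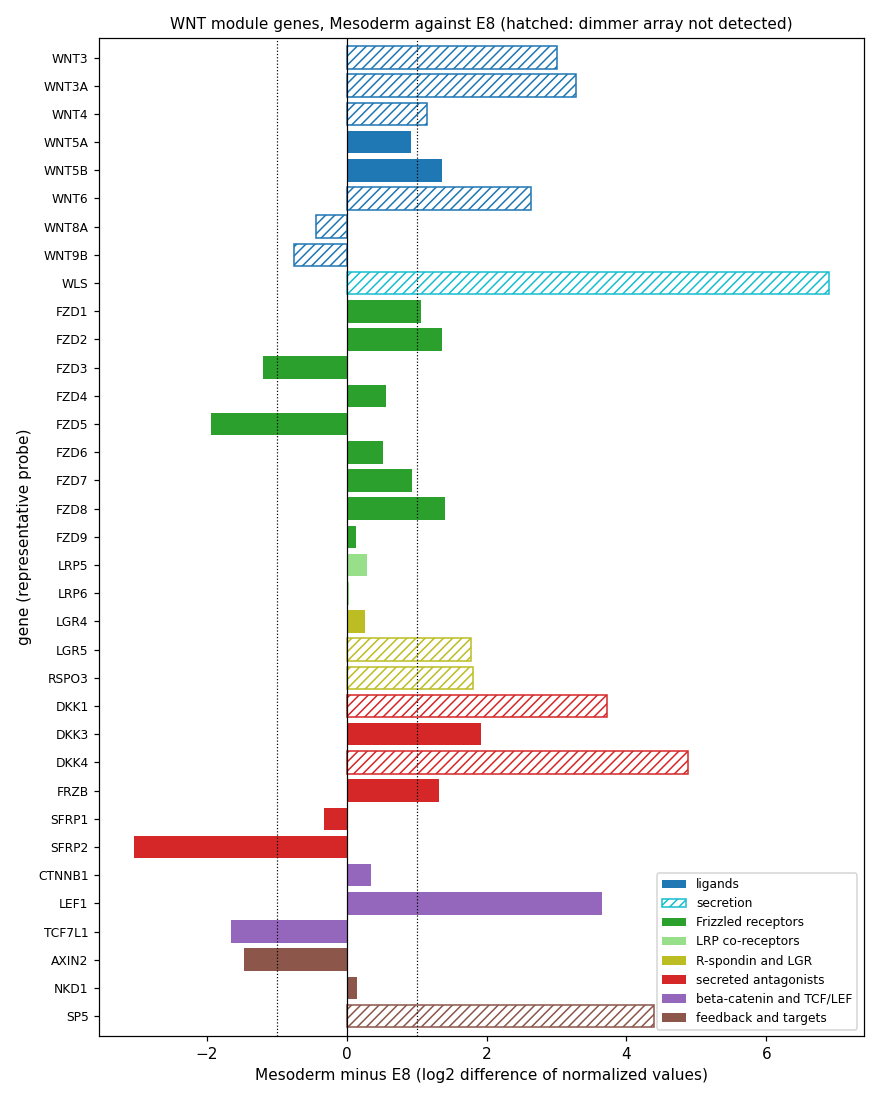
Mesoderm minus E8 (log2 difference of normalized values, x axis) for the 35 WNT module genes detected on at least 1 of both arrays (y axis); colours give the role, hatched bars are genes not detected on the dimmer array, whose bars are not bounds, and dotted lines mark 2-fold. WLS (6.89), DKK4 (4.88) and SP5 (4.40) reach furthest to the right and SFRP2 (-3.04) furthest to the left.

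The Frizzled receptors divided. FZD2 was at 8.85 in E8, 8.68 with Nam, 8.75 with Y27632 and 10.21 in Mesoderm (2.58-fold above E8), FZD8 at 6.09, 6.26, 6.37 and 7.50 (2.66-fold), and FZD1 at 5.93, 5.78 and 5.66 on the first 3 arrays and 1.06 above E8 on Mesoderm (2.09-fold). For each of them the Mesoderm value was above the other 3. The FZD1 call was lost under 4 alternatives, with differences of 0.42 without background correction, 0.89 under median scaling, 0.76 with an offset of 50 and 0.85 in the authors' deposited table, and the FZD8 difference was 0.64 without background correction. FZD5, a receptor found in the eye field, was at 8.35, 7.53, 8.31 and 6.41, which is 3.85-fold below E8 on Mesoderm. FZD3 was at 10.26, 10.41, 10.16 and 9.06 (2.30-fold below). FZD7, a receptor abundant in pluripotent cells, was just outside the threshold with a difference of 0.93, but its second detected probe gave 0.29. FZD4 (0.57), FZD6 (0.51) and FZD9 (0.13) differed by less. FZD10 was detected on Nam alone.

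The co-receptors LRP5 and LRP6 differed little between Mesoderm and E8, by 0.28 and 0.03. LGR4, a receptor of R-spondins, differed by 0.26. LGR5, the related receptor known from intestinal stem cells, was at 4.62 in E8, 4.58 with Nam, 5.01 with Y27632 and 6.40 in Mesoderm (at least 1.76-fold above E8). RSPO3, an R-spondin, was at 5.16, 4.79, 4.48 and 6.96 (at least 2.60-fold). Neither LGR5 nor RSPO3 was detected on the first 3 arrays.

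The secreted antagonists moved in both directions. DKK1 and DKK4 bind LRP5 and LRP6 and block the receptor complex, and both are themselves induced by WNT signalling. DKK1 was at 4.58 in E8, 4.98 with Nam, 4.80 with Y27632 and 8.31 in Mesoderm (at least 6.60-fold above E8), by 1 of its 2 probes, the other being detected on no array. DKK4 was at 4.51, 4.44, 4.37 and 9.39 (at least 14.0-fold). DKK3, a divergent member of the family, was already detected in E8, with values of 9.52, 9.65, 9.47 and 11.44 (3.77-fold), and its second detected probe differed by 1.81 against 1.92 for the first.

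The SFRP family binds WNT proteins outside the cell through a domain like that of Frizzled. SFRP2 was at 12.65 in E8, 12.73 with Nam, 12.87 with Y27632 and 9.61 in Mesoderm, an 8.22-fold lower value after BMP4. Its raw signals were 7256, 6201, 7454 and 906.8. SFRP1 differed by only -0.32. FRZB, also called SFRP3, went the other way, with values of 7.26, 6.06, 7.08 and 8.58, 2.50-fold above E8 on Mesoderm. SOST, which encodes the bone antagonist sclerostin, was not detected on E8 or Mesoderm.

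The transcription factors of the pathway also differed in opposite directions. LEF1, which activates targets with beta-catenin, was at 5.83 in E8, 5.69 with Nam, 5.89 with Y27632 and 9.48 in Mesoderm (12.5-fold above E8), and its second probe, detected on Mesoderm alone, differed by 4.92. The LEF1 value in E8 lay close to that array's limit of 5.59. The difference of 3.65 became 2.14 without background correction. TCF7L1, which mainly represses targets in pluripotent cells, was at 8.83, 8.75, 8.57 and 7.17 (3.15-fold below E8). CTNNB1, the gene of beta-catenin, differed by 0.34, and its 3 detected probes of 7 ranged from -0.48 to 0.34. A transcript level says nothing of beta-catenin protein, which the pathway regulates.

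Genes induced by WNT signalling did not move as one on the Mesoderm array. SP5, a transcription factor and direct target, was at 4.70 in E8, 4.45 with Nam, 4.48 with Y27632 and 9.10 in Mesoderm (at least 11.4-fold above E8). AXIN2, a scaffold of the destruction complex that acts as negative feedback, was at 10.52, 10.42, 10.28 and 9.05, which is 2.78-fold below E8, and the other 3 arrays lay within 0.24 of each other. NKD1, an inhibitor that binds Dishevelled, differed by 0.15. LEF1, DKK1 and DKK4, also known as targets, stood with SP5, while AXIN2 was lower and NKD1 was near its E8 value. Listed targets outside the module divided too. TBXT (at least 9.30-fold), TNFRSF19 (7.50-fold), BAMBI (6.99-fold) and NOTUM were called higher, but the bound of NOTUM was only 1.215-fold. MYC (-0.70), ZNRF3 (-0.45), CCND1 (-0.38) and NKD2 (-0.05) were not called. Whether BMP4 acted on any of these targets without WNT signalling was not tested.

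**Figure D3:**
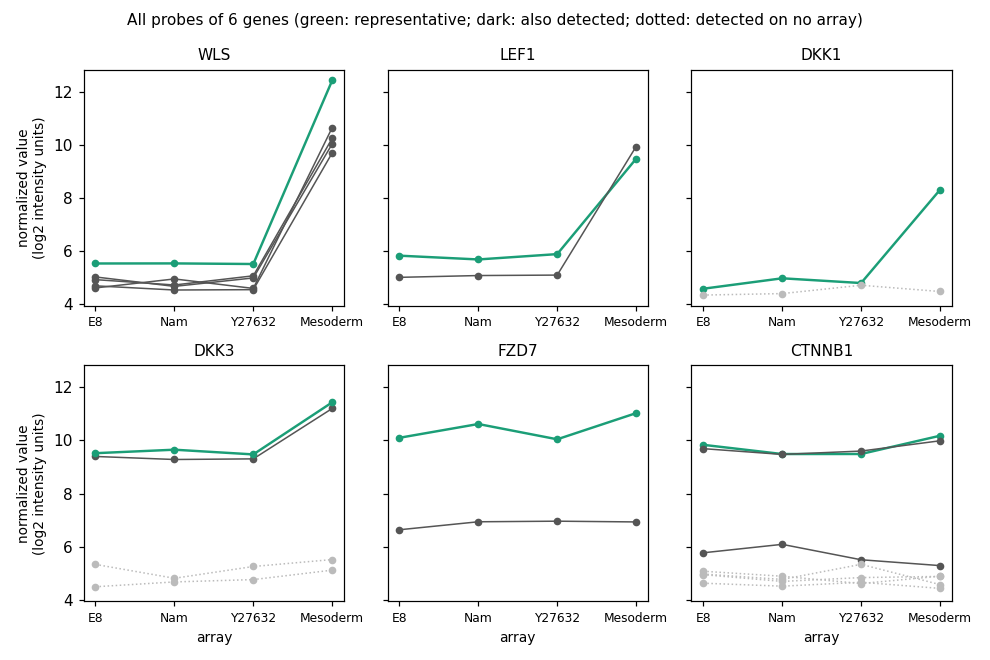
Normalized values (log2 intensity units, y axis) of every probe of 6 genes on the 4 arrays (x axis); each line joins the values of 1 probe, green marks the representative probe, dark grey other detected probes and dotted light grey those detected on no array. The 5 WLS probes and both LEF1 probes are higher on Mesoderm alone, DKK1 is seen by 1 of 2 probes, and the FZD7 probes differ by 0.93 and 0.29 between Mesoderm and E8.

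Promoters are shown for the 6 genes with a window whose Mesoderm difference was at least that of WNT3, to show where letters of the TCF and LEF recognition motif occur. The motif was searched on both strands as the core TCAAAG after A or T, or ACAAAG after A or T, in the RefSeq window from 250 bases before to 50 after the gene's start (GRCh38.p14), which was given for 35 of the 50 genes, PORCN and TCF7 among them, and for 33 of the 48 with a probe. It occurred in 3 of these 35 windows (8.57%), those of SP5, DKK1 and WNT3, and in 3802 of 27305 windows of the same length (13.9%). Of the 17 genes called higher, 13 had a window, and 3 of these 13 (23.1%) held a match. Capitals mark the matches. SP5 (chr2:170715087-170715386, plus strand) held 3 matches, beginning at -148, -109 and -84 from the start. DKK1 (chr10:52314031-52314330, plus strand) held 2, at -95 and -76, and WNT3 (chr17:46818643-46818942, minus strand) 1, at 20 bases into the transcript. The windows of WLS (chr1:68232474-68232773, minus strand), LEF1 (chr4:108166252-108166551, minus strand) and WNT3A (chr1:228006748-228007047, plus strand) held none, which says nothing of other parts of these genes. A match is not a shown binding site.
SP5: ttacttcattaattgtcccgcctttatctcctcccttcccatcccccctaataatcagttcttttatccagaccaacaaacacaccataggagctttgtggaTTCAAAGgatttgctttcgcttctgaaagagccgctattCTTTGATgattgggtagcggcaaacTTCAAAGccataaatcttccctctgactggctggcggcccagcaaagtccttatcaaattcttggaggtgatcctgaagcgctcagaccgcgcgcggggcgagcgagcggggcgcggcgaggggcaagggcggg
DKK1: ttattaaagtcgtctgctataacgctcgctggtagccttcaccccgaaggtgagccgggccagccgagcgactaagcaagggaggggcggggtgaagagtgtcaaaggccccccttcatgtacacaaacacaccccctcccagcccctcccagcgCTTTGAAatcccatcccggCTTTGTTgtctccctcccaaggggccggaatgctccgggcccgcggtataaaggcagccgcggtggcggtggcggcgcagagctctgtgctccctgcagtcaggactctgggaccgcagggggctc
WNT3: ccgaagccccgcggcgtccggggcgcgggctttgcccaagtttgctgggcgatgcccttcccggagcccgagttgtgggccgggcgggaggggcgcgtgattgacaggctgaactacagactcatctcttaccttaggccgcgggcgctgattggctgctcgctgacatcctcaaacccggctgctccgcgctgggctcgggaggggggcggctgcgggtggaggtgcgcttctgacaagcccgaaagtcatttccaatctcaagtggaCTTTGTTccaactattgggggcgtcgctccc
WLS: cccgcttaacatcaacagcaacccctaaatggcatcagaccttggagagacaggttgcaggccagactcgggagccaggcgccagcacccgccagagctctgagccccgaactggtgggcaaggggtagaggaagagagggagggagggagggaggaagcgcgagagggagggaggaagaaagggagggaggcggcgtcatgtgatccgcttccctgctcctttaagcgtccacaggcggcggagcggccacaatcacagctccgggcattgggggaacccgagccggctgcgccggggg
LEF1: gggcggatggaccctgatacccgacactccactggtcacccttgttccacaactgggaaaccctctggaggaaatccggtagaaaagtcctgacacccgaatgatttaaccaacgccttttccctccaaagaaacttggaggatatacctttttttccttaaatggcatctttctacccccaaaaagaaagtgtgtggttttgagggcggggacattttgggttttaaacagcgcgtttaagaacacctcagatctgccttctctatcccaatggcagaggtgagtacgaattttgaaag
WNT3A: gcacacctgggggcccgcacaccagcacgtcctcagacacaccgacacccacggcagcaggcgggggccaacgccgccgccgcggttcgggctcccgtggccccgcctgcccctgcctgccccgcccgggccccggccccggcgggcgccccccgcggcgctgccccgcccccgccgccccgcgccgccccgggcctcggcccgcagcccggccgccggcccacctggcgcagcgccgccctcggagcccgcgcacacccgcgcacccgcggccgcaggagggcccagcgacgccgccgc

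The BMP-responsive GC element GGCGCC, a palindrome bound by SMAD proteins, was searched in the same windows, and no window printed above holds both motifs. It occurred in 12 of 35 windows of the module (34.3%), in 3 of the 13 windows of genes called higher (23.1%) and in 5180 of 27305 windows in all (19.0%). WLS held 1 match, at -173, and WNT3A 1, at -106.

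After 24 h of nicotinamide, few genes of the module differed from E8. Of 28 genes measured, 1 was at least 2-fold lower, FRZB, and 1 at least 2-fold higher, WNT2B, which is 3.57% in each direction against 1.56% lower and 0.694% higher among 11390 genes. The median difference was -0.01 over the 28 genes and 0.04 over all genes. FRZB had raw signals of 296.7 on E8, 173.1 on Nam and 245.8 on Y27632, and its Nam value was lower than on each of the other 3 arrays, 2.29-fold below E8 and 2.03-fold below Y27632. The call lay near the threshold, and the difference of -1.20 became -0.99 in the authors' deposited table and -0.51 without background correction. WNT2B was detected on Nam alone at 5.63, at least 1.03-fold above E8, and its second probe was not detected. WNT8A (-0.91) and WNT9B (-0.79), dim on E8, were not detected on Nam.

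Next after FRZB among genes detected on both arrays, FZD5 differed by -0.83 (1.78-fold below E8), and was 1.72-fold below Y27632. FZD7 (0.52, and 0.30 by its second probe), FZD9 (0.47) and FZD6 (0.32) were above E8. LRP5 differed by 0.41 and LRP6 by -0.30. Of the 4 listed markers of neuroectoderm, the 2 detected on E8 and Nam, SIX6 and OTX2, were lower on the Nam array. PAX6 was detected on neither array. The summed intensity of this list (3 of 4 markers detected on any array, SOX1 on none) was 2711 in E8, 761.4 with Nam, 3107 with Y27632 and 944.8 in Mesoderm. Within it SIX6, an eye field factor, was 3.70-fold below E8 on Nam and not detected on Mesoderm, while OTX2 was 2.33-fold below E8 on Nam and 3.22-fold above it on Mesoderm. The part of neuroectoderm markers in the FZD5 and FRZB differences was not tested. Targets and transcription factors showed small differences, -0.11 for AXIN2, 0.26 for NKD1, -0.14 for LEF1, -0.07 for TCF7L1 and -0.35 for CTNNB1, whose detected probes ranged from -0.35 to 0.32. SFRP1, SFRP2 and DKK3 differed by 0.05, 0.09 and 0.13. SP5, DKK1, DKK4, RSPO3, LGR5, WNT3A and WLS were detected on neither array.

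**Figure D4:**
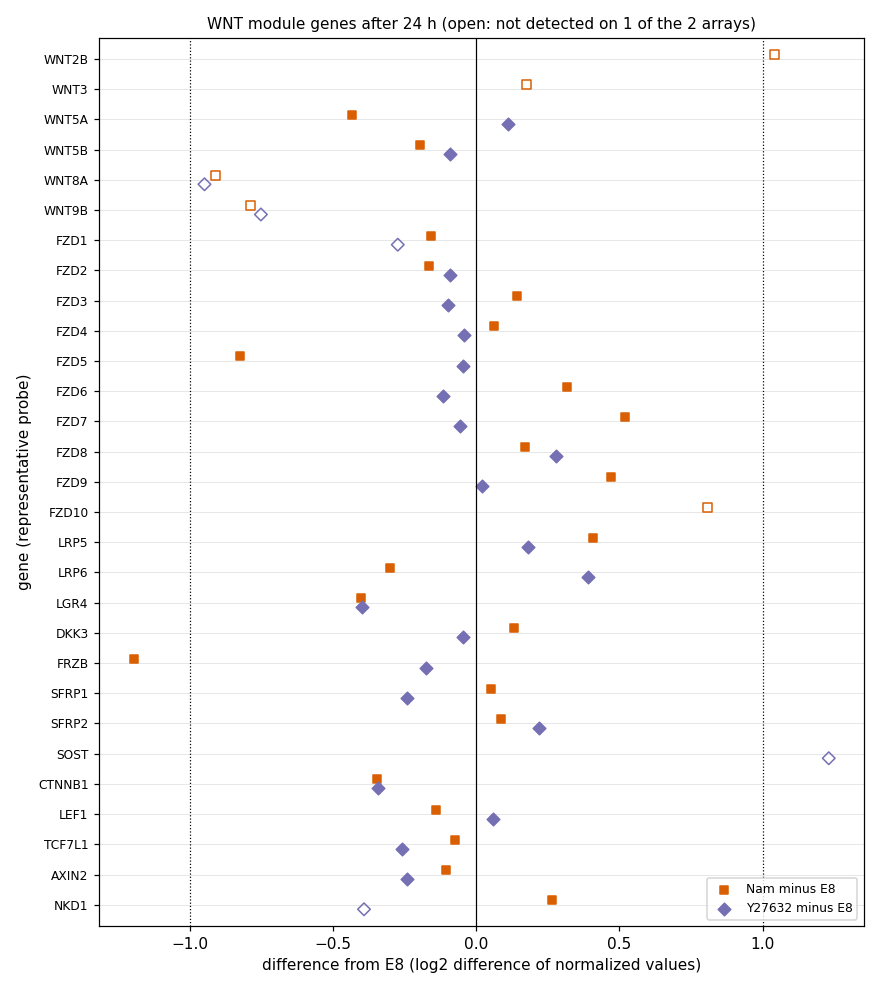
Difference from E8 (log2 difference of normalized values, x axis) of the Nam and Y27632 arrays for the WNT module genes measured in either comparison (y axis); open symbols were not detected on 1 of both arrays and dotted lines mark 2-fold. FRZB on Nam (-1.20), WNT2B on Nam (1.04) and SOST on Y27632 (1.23) are the points beyond the lines, and both sets of points share the E8 array.

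After 24 h of Y27632, 1 of 26 genes measured was at least 2-fold higher than on E8 (3.85%, against 0.228% of 10989 genes) and 0 were at least 2-fold lower (against 0.182%). The higher gene was SOST, at 4.85 in E8, 4.71 with Nam, 6.08 with Y27632 and 4.63 in Mesoderm. It was at least 1.41-fold above E8, was seen by 1 of 2 probes and lay near the limit of 5.82. The median difference was -0.09 over the 26 genes and 0.01 over all genes. Genes detected on both arrays stayed within -0.40 (LGR4) and 0.39 (LRP6), with FRZB at -0.18, FZD5 at -0.05, AXIN2 at -0.24, SFRP2 at 0.22 and SFRP1 at -0.24. CTNNB1 differed by -0.35, with detected probes between -0.35 and -0.09. WNT8A and WNT9B were again not detected, and neither was NKD1. The E8 array is shared by the Nam and Y27632 comparisons, so a value peculiar to it appears in both.

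The 24 h treatments were also set against each other. Of 27 genes measured, 2 were at least 2-fold lower on Nam than on Y27632, FRZB (-1.02) and SOST (at least 1.45-fold), and 0 were higher. These are 7.41% and 0 of the module, against 1.07% and 0.635% of 11173 genes. The next largest differences were those of FZD5 (-0.78), LRP6 (-0.69), NKD1 (0.66, not detected on Y27632), WNT2B (0.64, with no fold above the limit of detection), FZD7 (0.58, but -0.02 by its second probe) and WNT5A (-0.54).

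A further 75 genes of the pathway outside the module, such as destruction complex members, co-repressors, other extracellular regulators and planar polarity genes, gave 55 measured genes. On Mesoderm against E8, 10 of 53 were at least 2-fold higher and 7 lower (18.9% and 13.2%, against the 10.6% and 11.4% of all genes), and their median was 0.04. CER1, a secreted antagonist of Nodal, BMP and WNT proteins, was at least 14.2-fold higher, TBXT, the mesoderm factor brachyury and a WNT target, at least 9.30-fold, TNFRSF19 7.50-fold, BAMBI, a decoy receptor of the TGF-beta family, 6.99-fold and IGFBP4 4.12-fold. ADGRA2, a co-receptor for WNT7 proteins, was at least 3.01-fold higher and ROR2, a receptor of WNT5A, 2.30-fold. The related receptor ROR1 went the other way, from 10.76 in E8 to 9.67 in Mesoderm (2.14-fold lower). VANGL1 (at least 1.714-fold), DKKL1 (at least 1.656-fold) and NOTUM (at least 1.215-fold) were also called higher, with bounds below 2-fold. FRAT1, not detected on Mesoderm, was called lower, also with a bound below 2-fold (at least 1.556-fold). CELSR2 (2.315-fold) and KREMEN2 (2.039-fold) were lower too. TLE1, a co-repressor of TCF proteins, was 3.76-fold lower, FRAT2, which binds the kinase GSK3, 3.52-fold lower, and AMER1 2.61-fold lower. On Nam against E8, 1 of 50 was higher, ADGRA2 (at least 1.42-fold), and 0 were lower, against 0.694% and 1.56% of all genes. On Y27632 against E8, 1 of 48 was higher, CER1 (at least 1.32-fold), and 0 were lower, against 0.228% and 0.182%. Between Nam and Y27632, 1 of 50 was higher on Nam, ADGRA2 (at least 1.21-fold), and 1 lower, CER1 (at least 1.36-fold). The shares of all genes there were 0.635% and 1.07%.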

How the data were processed

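Total RNA of 4 cultures was amplified (TargetAmp-Nano), labelled with biotin and hybridised to Illumina BeadChips, per the labels' protocols. The authors deposited non-normalized signal intensities and detection p-values of 47296 probes, and a table of their normalized log2 values, whose method is not given in the sources used here. The deposited detection p-value columns share one header and were read with the signal column beside them; ordered by that signal, the p-values never rose (100.0% of steps), against 62.73% to 65.21% for another array's signal. The series matrix equals that table (0 of 189184 cells differ); its scale is log2 without centring of genes, with column medians of 5.58. Intensities were processed with limma 3.58.1 in R 4.3.3: neqc estimated background from the detection p-values, and quantile normalization and log2 followed after 16 units were added, so differences of dim genes are understated. Probes were named through the platform annotation (30105 with 1 symbol, 8 with several, 17183 unnamed here; 0 symbols changed when updated by gene identifier). A gene was represented by its brightest probe among those detected (p at most 0.01) on any array, giving 12083 genes, and entered a comparison when that probe was detected on 1 or more of the arrays compared. Genes were called at 2-fold. Every detected member was named. The normalization was tested on simulated data in which only probes well above background were shifted, so calls near background were not covered. Alternatives, 8 in number, varied the background, normalization, offset, filter and probe summary, and included the authors' values. The number of arrays limits the precision. Members and lists were chosen with earlier results of these data known.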

Additional observations from a re-analysis of the deposited data

How the results depend on the processing

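The differences of the genes called in any comparison, 64 in all, gave 494 values under the 8 alternatives. Of these values, 451 stayed within the between-probe SD of the main value and 43 moved by more. A detection limit of 0.05 (64 values), no filter (64) and detection on all arrays compared (46) reuse the main values. Those values could not move. Without background correction 23 of 64 moved, and with an offset of 50, 15 did. The authors' values moved 3 and the mean of detected probes 2. Of called differences, 0 changed sign. Small uncalled ones did under median scaling, such as FZD3 (0.14 to -0.03) and DKK3 (0.13 to -0.06) on Nam against E8. The Mesoderm counts of 17 higher and 5 lower against E8 stayed within 1.5 times except in these settings. Without background correction 9 were higher than E8, 9 were above all 3 other arrays and 2 below them. The shares of all genes were then 4.62%, 3.76% and 2.58%, against 10.6%, 7.96% and 7.09% in the main setting. With detection required on all arrays compared, 7 were higher than E8 and 6 above all 3 others, against 8.01% and 5.47% of all genes. This filter drops by construction the 10 of the 17 genes that were not detected on E8. The 24 h counts of 0 to 2 genes are not stable: without background correction and with an offset of 50, the genes higher on Nam, lower on Nam, higher on Y27632 and lower on Nam than on Y27632 were 0 each. With the authors' values, 0 were lower on Nam, 0 higher on Y27632, and 1 was lower on Nam than on Y27632. With detection on all arrays compared, 0 were higher on Nam, 0 higher on Y27632, and 1 was lower on Nam than on Y27632. Median scaling gave 2 lower on Nam (FRZB and FZD5) and 1 lower on Y27632 (WNT8A), and moved the median of all genes to -0.19, -0.15 and -0.16 for Mesoderm, Nam and Y27632 minus E8; the Mesoderm split of all genes was then 1006 higher and 1746 lower, against 1235 and 1330. A detection limit of 0.05, no filter and the mean of detected probes left every count of the module the same. Leaving out a replicate was not possible with 1 array per condition. Signals near background limit WNT2B, WNT4, WNT8A, WNT9B, LGR5 and SOST. Background on E8 also limits the sizes of the large Mesoderm differences. Without background correction they were 4.96 for WLS, 2.50 for DKK4, 2.16 for SP5 and 2.14 for LEF1. Those of DKK1, WNT3 and WNT3A were 1.62, 1.46 and 1.33.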

Other observations

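FZD4-DT, a divergent transcript beside FZD4 that is no receptor and was left out of the module, was detected on Nam and Mesoderm, with values of 5.21 in E8, 5.65 with Nam, 5.30 with Y27632 and 6.54 in Mesoderm.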
